A study of Rattus norvegicus with 16 samples.

Results

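A set of 9 genes of the cell's defence against oxidants and free haem were followed across the hypothalamus of 16 rats: Hmox1, Srxn1, Nqo1, Gclc, Gclm, Txnrd1, Sod1, Sod2 and Cat. They were read through the probe sets that the platform's annotation assigns to exactly 1 of these 9 symbols, which gave 13 of the 31042 probe sets that are not controls. The rats were male Wistar animals aged 7 to 8 weeks, with 1 single-colour Affymetrix array per rat and 4 rats in each of 4 groups. Control rats had neither treatment, the stress group was restrained for 2 h, the linalool group inhaled (R)-(-)-linalool, a floral monoterpene alcohol, for 2 h, and the stress with linalool group had both for 2 h. The labels name no dose of linalool and no time between the exposure and the tissue. The layout asks how the 9 genes changed with restraint, how they changed with linalool, and whether one altered the other.

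Oxidants and electrophiles release the transcription factor NRF2 (gene Nfe2l2) from its inhibitor KEAP1, and NRF2 then binds antioxidant response elements in genes such as Nqo1, Gclc, Gclm, Txnrd1 and Srxn1. Hmox1 encodes haem oxygenase 1, which splits haem into biliverdin, carbon monoxide and iron. It answers to NRF2, is repressed by BACH1, and is also known as a heat shock protein. Sod1, Sod2 and Cat encode the superoxide dismutases of the cytosol and the mitochondrion and catalase. In the brain, haem oxygenase 1 is found mainly in glia, macrophages and vessels when it is induced.

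Sequences before annotated starts are shown for 3 of the genes. They are examples that hold letters of the antioxidant response element, through which NRF2 is known to act. Sod2 also held such letters and is not printed. The printed sequences come from RefSeq on the GRCr8 build, 250 bases before the annotated start to 10 after it, on the gene's strand. Capitals mark matches to the core of that element, written TGACNNNGC or TGAGNNNGC, and in Srxn1 also to the AP-1 site TGANTCA. The stretches are chr3:161064562-161064821 for Srxn1, chr2:213031885-213032144 for Gclm and chr7:22755895-22756154, on the minus strand, for 1 of the 2 Txnrd1 windows.
Srxn1: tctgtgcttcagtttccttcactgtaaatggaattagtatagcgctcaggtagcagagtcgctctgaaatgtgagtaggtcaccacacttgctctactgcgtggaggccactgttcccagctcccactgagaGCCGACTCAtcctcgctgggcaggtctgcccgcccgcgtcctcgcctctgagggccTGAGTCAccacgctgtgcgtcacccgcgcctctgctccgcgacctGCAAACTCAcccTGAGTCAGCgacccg
Gclm: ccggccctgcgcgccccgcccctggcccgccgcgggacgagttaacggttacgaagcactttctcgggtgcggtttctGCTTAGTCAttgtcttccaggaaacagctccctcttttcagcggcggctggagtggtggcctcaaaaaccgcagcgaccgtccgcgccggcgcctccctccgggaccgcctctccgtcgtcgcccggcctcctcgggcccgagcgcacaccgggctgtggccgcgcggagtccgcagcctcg
Txnrd1: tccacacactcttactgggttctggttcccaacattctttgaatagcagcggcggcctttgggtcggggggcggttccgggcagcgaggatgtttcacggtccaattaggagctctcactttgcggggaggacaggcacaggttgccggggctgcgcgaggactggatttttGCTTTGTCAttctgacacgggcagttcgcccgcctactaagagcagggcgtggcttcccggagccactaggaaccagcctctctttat

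The Srxn1 window held TGAGNNNGC 118 and 17 bases upstream on the opposite strand, and from 5 bases upstream across the start on its own strand. Its AP-1 matches began 62 and 5 bases upstream, the latter within the last of these cores. TGACNNNGC, on the opposite strand, began 172 bases upstream in Gclm, 78 in Txnrd1 and 35 in Sod2. A heat shock element core (GAANNTTC) lay 179 bases upstream in Sod1. The windows of Nqo1, Gclc and Cat matched none of the motifs searched, which included the E-box CACGTG. The Gclc window, chr8:87510226-87510525, lies mostly within the gene's span, which begins at 87510251, so little sequence upstream of that span was searched. The Txnrd1 windows also lie within the span of their gene (22717620 to 22802553), at internal annotated starts. Both strands were searched over 300 bases, and GAANNTTC, TGANTCA and CACGTG read the same on both. Of 33469 such windows of all genes, 12.1% held TGACNNNGC, 17.2% TGAGNNNGC, 8.59% the heat shock element core, 7.33% the AP-1 site and 6.42% the E-box. These are matches of letters and show no binding, and nothing here relates them to the changes with restraint. RefSeq windows were matched for 8 of the 9 genes, and Hmox1 was not among them.

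Values below are log2(signal + 16) after quantile normalization between arrays, where 16 is a pseudocount that damps dim signals, so a fold change understates the change of a dim gene. Each change is a log2 difference, given with its standard error (SE) and 95% interval from limma. Adjusted p-values are Benjamini-Hochberg values over all 18625 kept probe sets, and a probe set was called when its adjusted p lay under 0.05. Of the 13 member probe sets, 12 were bright enough to be kept. The other, Srxn1 1381067_at, lay between 4.09 and 5.19 on all 16 arrays, close to the value of 4 that a signal of 0 would give, and was not tested. Signals of different probe sets are not set against each other, since each binds its target with its own strength.

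As deposited, the median signal per array ran from 67 to 127. BioC, a hybridization spike-in, was bright (903 to 960) on 3 arrays and 246 to 282 on the other 13. The bright ones were stress with linalool rat 2 and rats 2 and 4 of the linalool group. Controls 1 and 2 had the lowest mean correlation with the other arrays (0.9645 and 0.9627). Of 14 hypothalamic and neuronal markers on the array, 11 were kept, among them Avp (12.01), Oxt (12.45) and Pmch (12.87). Of the listed markers, Pomc, Agrp, Sim1 and Otp were not among those kept. The same filter passed 18625 of all 31042 probe sets. The summed signal of 3 kept pituitary markers was 208 in control rat 3 and 5320 to 6900 in the other controls. It was 4520 to 7000 with stress, 2750 to 4310 with linalool and 2330 to 6010 with both. The part of pituitary tissue in the comparisons below was not tested.

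Averaged over both odour conditions, restraint raised Hmox1 and Srxn1, and no other of the 9 genes passed the test. Hmox1 was 1.74-fold higher in restrained rats (log2 0.80, SE 0.20, interval 0.37 to 1.23, adjusted p = 0.0338). Srxn1, which encodes sulfiredoxin, the enzyme that repairs overoxidized peroxiredoxins, was 1.34-fold higher at its brightest probe set 1372510_at (log2 0.43, SE 0.092, interval 0.23 to 0.62, adjusted p = 0.0149). Hmox1 lies on chromosome 19 at 13452365 to 13479823 and Srxn1 on chromosome 3 at 161064812 to 161070372 (GRCr8). In all, 2 of 12 member probe sets were called, both higher, where 4.21% of all kept probe sets were called and 2.65% were called higher. Of all calls 62.9% were higher, and 98.2% with the values as deposited, where the median of all probe sets was shifted by 0.21. The arrays measured whole tissue, in which fewer cells of a type and less RNA per cell cannot be told apart. By p-value, Hmox1 ranked 605 and Srxn1 330 among all 18625. Earlier results of these data, in which both genes already stood out, were known when the genes were listed.

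Hmox1 measured 6.77, 6.57, 6.28 and 6.94 in the 4 control rats and 7.24, 7.63, 6.70 and 7.38 in the 4 rats restrained without odour. In the linalool rats it measured 6.84, 6.90, 6.84 and 6.40, and in the rats with both treatments 8.71, 7.94, 7.31 and 7.04. Of 8 restrained rats, 7 lay above every unrestrained rat, and stress rat 3 was the exception. How common such a separation was among other kept probe sets was not counted. The spread was widest with both treatments, where rat 1 was highest of all 16 and rat 4 was near the restrained rats without odour. Group means were 6.64 ± 0.28 in controls, 7.24 ± 0.39 with stress, 6.75 ± 0.23 with linalool and 7.75 ± 0.74 with both (SD, n = 4).

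**Figure D1:**
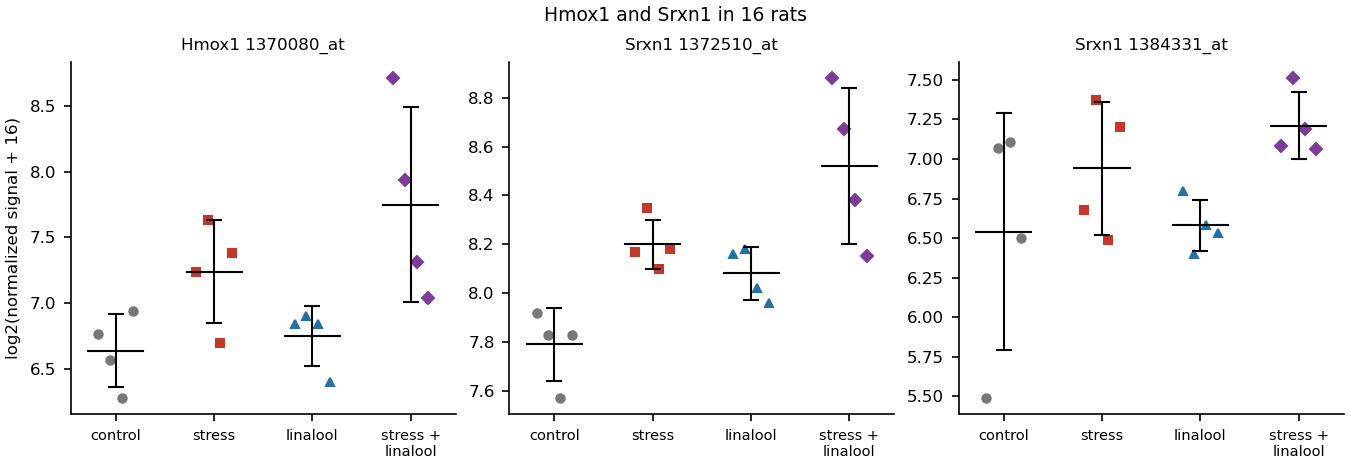
Each point is 1 rat, in the order of its number from left to right within a group, on a log2(normalized signal + 16) axis that does not start at 0. Lines are group means and bars the SD over 4 rats. The restrained groups have the higher means in all 3 panels, and the highest Hmox1 value, 8.71, belongs to stress with linalool rat 1.

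The call of Hmox1 was a narrow one. Its adjusted p rose above 0.05 when any 1 of 9 rats was left out: control rats 2 (0.0539) and 3 (0.0682), stress rats 1 (0.0647), 2 (0.075) and 4 (0.0612), linalool rats 1 (0.0589), 3 (0.0599) and 4 (0.0645), or rat 2 of those given both (0.0712). The change itself stayed between 0.64 and 0.92 over all 16 such fits. Within the 13 arrays of low BioC it was 0.72 (SE 0.25, adjusted p = 0.155), and with BioC as a block 0.80 (SE 0.21, adjusted p = 0.0411). Without the rats of highest Hmox1, stress with linalool rats 1 and 2, it was 0.52 (SE 0.15, adjusted p = 0.126).

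Srxn1 at 1372510_at measured 7.92, 7.83, 7.57 and 7.83 in controls and 8.17, 8.35, 8.10 and 8.18 in rats restrained without odour. With linalool alone it measured 8.16, 8.18, 8.02 and 7.96, and with both treatments 8.88, 8.67, 8.38 and 8.15. The 4 restrained rats without odour all lay above the 4 controls. The share of all kept probe sets that separated these groups was not counted. Among linalool rats the groups overlapped, since stress with linalool rat 4 lay within the range of the linalool group. Its call held when any 1 rat was left out (0.37 to 0.49), and was lost within the arrays of low BioC (0.40, SE 0.11, adjusted p = 0.0845) and without stress with linalool rats 1 and 2 (0.30, SE 0.076, adjusted p = 0.0804).

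The other tested Srxn1 probe set, 1384331_at, differed by 0.51 (SE 0.20, interval 0.090 to 0.93, adjusted p = 0.165). It measured 5.49, 7.07, 7.11 and 6.50 in controls, a range wider than in any other group, and 7.08, 7.51, 7.19 and 7.06 with both treatments. Its correlation with 1372510_at over the 16 arrays was 0.42. The platform table ties the 3 Srxn1 probe sets to different sequence records, and the gene's call rests on 1 of the 2 tested. With the beta-actin 3'/5' ratio, a measure of RNA quality, as a covariate 1384331_at passed as well (0.54, SE 0.12, adjusted p = 0.0159). That was 1 of 2 settings of 28 in which it passed, the other being the values as deposited. Control rat 1, which held the 5.49, had the highest beta-actin ratio of all arrays (log2 2.30). Without that rat the average change was 0.34 (SE 0.14, adjusted p = 0.165) with limma, and the difference between stress and control rats 0.042.

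When restraint was examined within each odour condition, no member passed. Between stress and control rats, 0 of 12 member probe sets were called with limma, against 0.902% over all kept probe sets. An unadjusted p under 0.05 was found for 1 of the 12 members and for 12.6% of all kept probe sets. Hmox1 differed by 0.60 (SE 0.29, interval -0.0074 to 1.20, adjusted p = 0.401) and Srxn1 1372510_at by 0.41 (SE 0.13, interval 0.14 to 0.69, adjusted p = 0.175). Between stress with linalool and linalool rats, 0 of 12 were called with limma, against 1.69% in all. At an unadjusted p under 0.05 lay 3 of the 12 members and 16.2% of all kept probe sets. There Hmox1 differed by 1.01, a 2.01-fold difference (SE 0.29, interval 0.40 to 1.61, adjusted p = 0.0903), Srxn1 1372510_at by 0.44 (SE 0.13, adjusted p = 0.102) and Srxn1 1384331_at by 0.63 (SE 0.28, adjusted p = 0.279). Without stress with linalool rat 4, Hmox1 (1.24, adjusted p = 0.0308) and Srxn1 1372510_at (0.56, adjusted p = 0.0239) were called in this comparison. Without rat 1 of that group, Hmox1 differed by 0.69 (adjusted p = 0.223) and Srxn1 1372510_at by 0.32 (adjusted p = 0.275), and with rats 1 and 2 left out by 0.43 (adjusted p = 0.703) and 0.19 (adjusted p = 0.76). Within the arrays of low BioC the differences were 0.85 and 0.38 (both adjusted p = 0.372). Within the 3 arrays of high BioC, where 1 stress with linalool rat faced 2 linalool rats, the differences were 1.29 for Hmox1 and 0.60 for Srxn1 1372510_at, with no test. The 2 comparisons share no rats, but both use 1 estimate of the spread taken over all 16 arrays. Without stress with linalool rat 1, the SE for Hmox1 between stress and control rats was 0.21.

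The test of whether the change with restraint differed by odour condition called 0 of 12 member probe sets and 0% of all kept ones with limma, with 0 members and 1489 probe sets in all at an unadjusted p under 0.05. The difference was 0.41 for Hmox1 (interval -0.45 to 1.26) and 0.027 for Srxn1 1372510_at (interval -0.36 to 0.42). Without stress with linalool rat 1 they were 0.089 and -0.093, and with rats 1 and 2 left out -0.16 and -0.23. The intervals are wide enough to hold a difference as large as the average change itself for Hmox1. Sod2 had the smallest p of the members here (0.44, SE 0.23, interval -0.045 to 0.93, adjusted p = 0.659), with a difference of -0.18 with restraint alone and of 0.26 with restraint during linalool. Without control rat 2, which held the highest Sod2 value, the difference with restraint alone was 0.014 and the test value 0.25 (adjusted p = 0.774).

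The enzymes that make glutathione showed no call in any comparison. Gclc encodes the catalytic subunit of glutamate-cysteine ligase, the first and limiting step. Its brighter probe set 1372523_at measured 8.68, 8.44, 8.69 and 8.81 in controls, 8.68, 8.41, 8.66 and 8.68 with stress, 8.63, 8.52, 8.45 and 8.46 with linalool and 8.57, 8.32, 8.40 and 8.62 with both. All 4 groups overlapped, and the average change with restraint was -0.044 (SE 0.069, interval -0.19 to 0.10). The dimmer 1370688_at changed by -0.038 (SE 0.10, interval -0.26 to 0.18), and the pair correlated at 0.47 over the 16 arrays.

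Gclm, the modifier subunit of the same ligase, measured 7.47, 8.46, 7.88 and 7.48 in controls and 7.77, 7.65, 7.83 and 7.86 with stress. Control rat 2 held the highest Gclm value of all, and the SD was 0.46 in controls against 0.091 with stress. The average change with restraint was 0.060 (SE 0.12, interval -0.19 to 0.31). An average rise of the size measured for Srxn1 lies outside this interval and outside both Gclc intervals.

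Txnrd1 encodes cytosolic thioredoxin reductase, which keeps thioredoxin reduced. Its brighter probe set 1398791_at changed by -0.030 with restraint (SE 0.061, interval -0.16 to 0.099), and its values with both treatments lay within 8.90 and 8.94. The other, 1386958_at, changed by 0.056 (SE 0.13, interval -0.21 to 0.33) and was 7.40 in control rat 1, below the other 15 rats. The 2 Txnrd1 probe sets correlated at 0.13 over the arrays. Nqo1, a quinone reductase and a standard readout of NRF2, changed by 0.11 (SE 0.064, interval -0.029 to 0.24, adjusted p = 0.398), from 9.07 to 9.34 in controls and from 9.18 to 9.48 with both treatments.

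**Figure D2:**
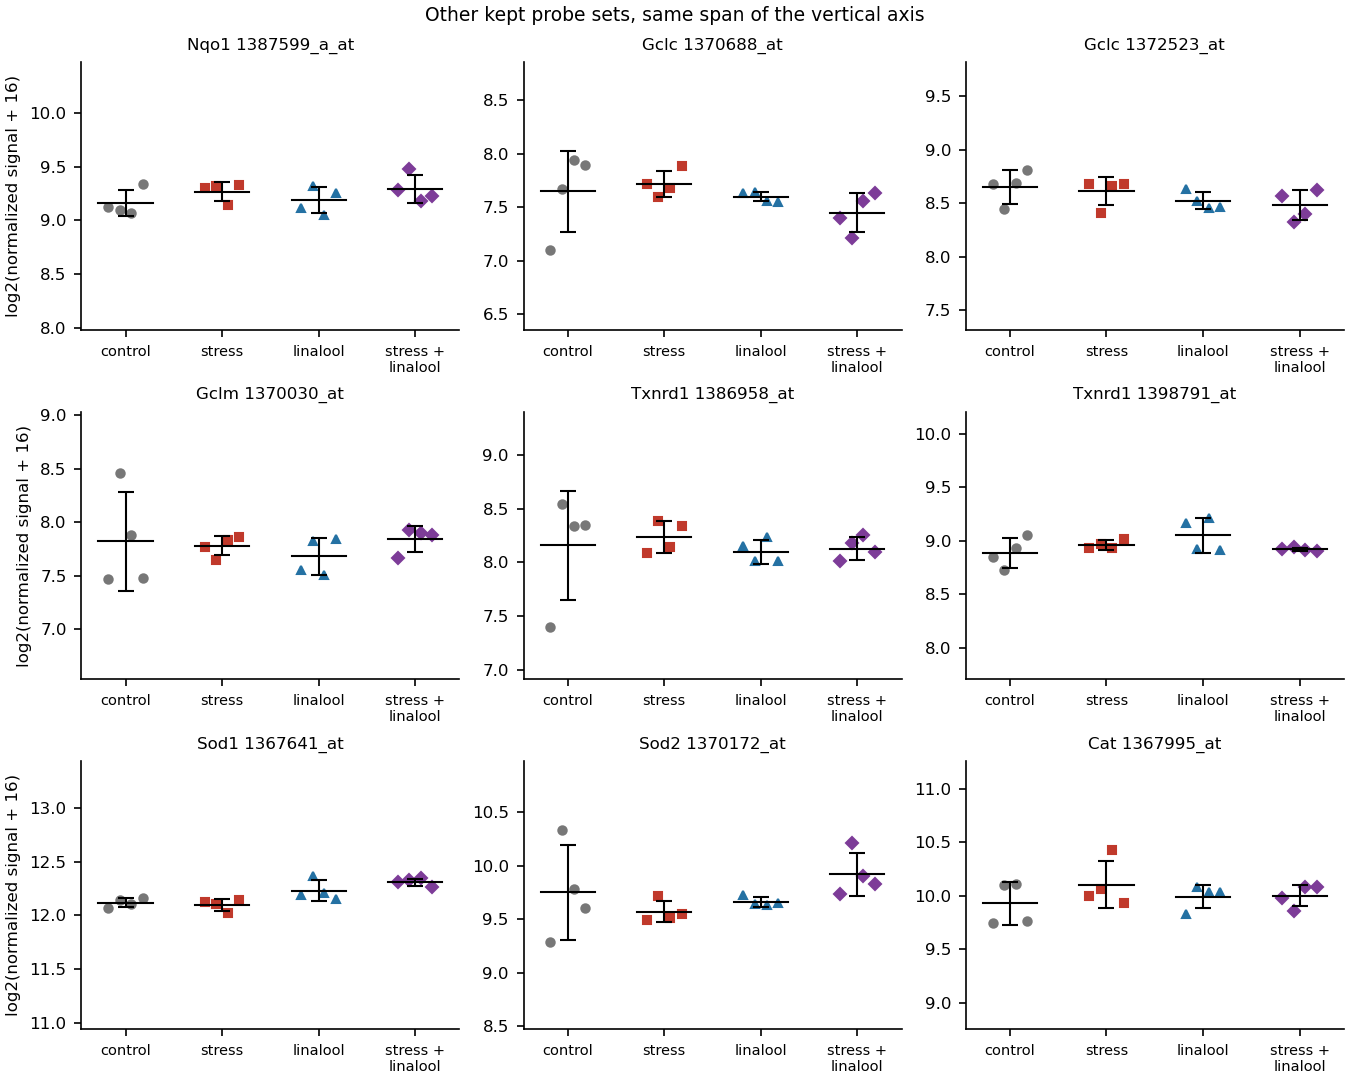
Points are rats, lines group means and bars the SD over 4 rats, on a log2(normalized signal + 16) axis. Every panel spans the same 2.5 log2 units, so the widths can be compared. Control rats spread widely for Gclm, Sod2 and Txnrd1 1386958_at, and no panel shows a called change.

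Of the enzymes that remove superoxide and peroxide, none passed. Sod1 was the steadiest member, with a spread within groups of 0.062. It measured 12.07 to 12.16 in controls, 12.02 to 12.14 with stress, 12.15 to 12.37 with linalool and 12.27 to 12.35 with both, and its average change with restraint was 0.032 (SE 0.048, interval -0.069 to 0.13). Sod2 measured 9.29, 10.33, 9.78 and 9.60 in controls and 9.49 to 9.72 with stress, so that control rats 1 and 2 held both ends of its range. Its average change was 0.040 (SE 0.11, interval -0.20 to 0.28). Cat was 9.74 to 10.11 in controls and 9.93 to 10.43 with stress, an average change of 0.093 (SE 0.083, interval -0.083 to 0.27).

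Linalool in unrestrained rats gave no call for any member. With limma, 0 of 12 member probe sets and 0% of all kept ones passed, while 1 member and 1831 probe sets in all had an unadjusted p under 0.05. That member was Srxn1 1372510_at, higher by 0.29 with linalool (SE 0.13, interval 0.016 to 0.57, adjusted p = 0.485). All 4 linalool rats lay above the 4 controls for it, from 7.96 against at most 7.92. How many other kept probe sets separated these groups was not counted. Hmox1 differed by 0.11 (SE 0.29, interval -0.50 to 0.71), and -0.041 with the values as deposited, where the median of all probe sets was shifted by -0.17 (0.13 relative to that shift).

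Among restrained rats, linalool likewise gave 0 calls in 12 with limma, against 0.650% over all kept probe sets. At an unadjusted p under 0.05 lay 3 members and 12.6% of all kept probe sets. Sod1 was higher by 0.21 with linalool (SE 0.067, interval 0.070 to 0.35, adjusted p = 0.175), and its groups did not overlap, with 12.14 as the highest value without odour and 12.27 as the lowest with it. Sod2 was higher by 0.35 (SE 0.16, interval 0.0070 to 0.69, adjusted p = 0.384). Its values were 9.74, 10.21, 9.90 and 9.83 against 9.49, 9.72, 9.51 and 9.55, again without overlap. How often other kept probe sets separated these groups was not counted, so the lack of overlap does not set Sod1 or Sod2 apart. Srxn1 1372510_at was higher by 0.32 (SE 0.13, interval 0.042 to 0.59, adjusted p = 0.313) and Hmox1 by 0.51 (SE 0.29, interval -0.092 to 1.12, adjusted p = 0.489), both with overlap. Both were smaller without stress with linalool rat 1, where Srxn1 differed by 0.20 and Hmox1 by 0.19, and with rats 1 and 2 left out by 0.064 and -0.059. Gclc 1370688_at differed by -0.27 (SE 0.15, adjusted p = 0.476). The linalool comparisons reuse the rats of the restraint comparisons, so they are no independent evidence for them.

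**Figure D3:**
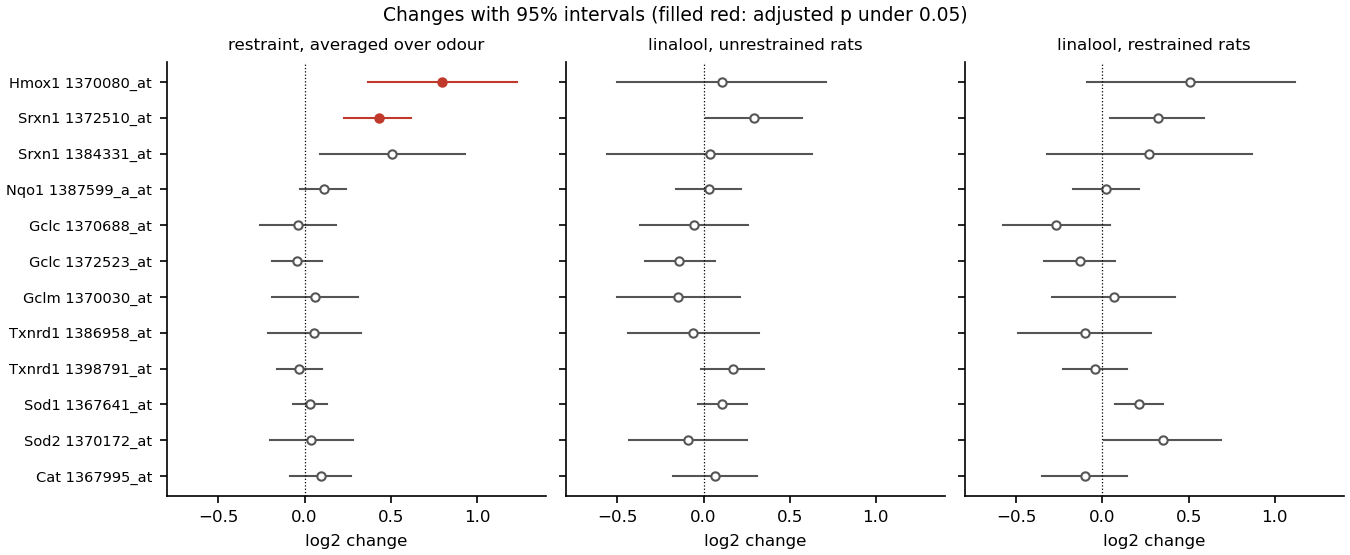
Each row is a kept probe set, each point its log2 change and each line the 95% interval from limma. Panels show restraint averaged over both odour conditions, linalool in unrestrained rats and linalool in restrained rats, and filled red points passed an adjusted p of 0.05. Hmox1 and Srxn1 1372510_at pass in the first panel, and nothing passes in the others.

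Hmox1 and Srxn1 moved together from rat to rat. The 36 pairs among the 9 genes were taken at their brightest probe sets and as deviations from the group means. That removes the mean change with treatment, but not differences between rats in how strongly they responded to it. Hmox1 and Srxn1 were the only pair to pass (Pearson r = 0.92, exact two-sided permutation p within groups = 0.000202, adjusted 0.00727; Spearman's rho = 0.88, p = 0.00115, adjusted 0.0413). Without stress with linalool rats 1 and 4, the farthest from the median, r was 0.82. In 22 of 24 pairs of rats within a group, the rat with more Hmox1 also had more Srxn1. The order was the same in 6 of 6 pairs with stress and in 6 of 6 with both treatments. Gclm and Sod2 followed with r = 0.79 (exact permutation p = 0.0343, adjusted 0.232), which fell to 0.33 without control rats 1 and 2. The values come from the same arrays, so anything an array shares between its probe sets enters these numbers.

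**Figure D4:**
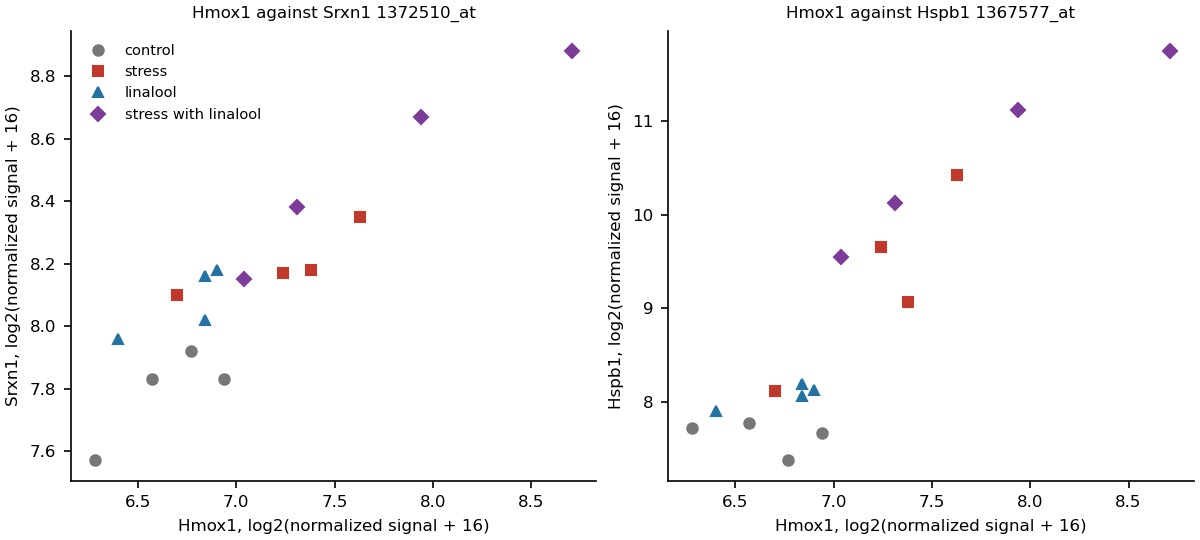
Each point is 1 rat, with Hmox1 on the horizontal axis and Srxn1 1372510_at (left) or Hspb1 (right) on the vertical axis, all as log2(normalized signal + 16). Stress with linalool rats 1 and 2 lie at the upper right in both panels, and stress rat 3 lies beside the unrestrained rats.

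Over all 16 arrays, the genes most like Hmox1 among 10250 compared were Hspd1 (r = 0.95), a mitochondrial chaperonin, Dnajb4 (0.93), Srxn1 (0.92), Dnaja4 (0.92) and Hspb1 (0.92). Dnajb4 and Dnaja4 encode cochaperones of the J-domain family, and Hspb1 a small heat shock protein. For Srxn1 1372510_at they were Hmox1 (0.92) and the activity-induced factor genes Fosb (0.92) and Nr4a3 (0.92). The cochaperone gene Bag3 (0.92) and Hspe1 (0.91), the partner of Hspd1, came next. These r are descriptions, since the genes were picked as the highest, and they hold the treatment. As deviations from group means they were 0.81 to 0.92 for the 5 nearest to Hmox1 and 0.75 to 0.92 for the 5 nearest to Srxn1. None of the remaining 7 genes was among them.

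Hspb1 shows the shared pattern in its values. It measured 7.37 to 7.77 in controls, 9.65, 10.43, 8.11 and 9.07 with stress, 7.90 to 8.19 with linalool and 11.75, 11.12, 10.12 and 9.55 with both. As for Hmox1, stress rat 3 was the lowest restrained rat and stress with linalool rats 1 and 2 were the highest of all. Its average change with restraint was 2.13 (SE 0.31, adjusted p = 0.000794), larger than that of either gene.

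In the wider pathway around NRF2, no gene passed. Of 61 further genes of the NRF2 pathway and of antioxidant enzymes with a symbol on the array, 55 were kept. Limma called 0 of them in any of the 6 comparisons, where 0% to 4.21% of all kept probe sets were called. At an unadjusted p under 0.05 lay 2 to 9. With restraint on average these were 9 of 55 (16.4%), beside 18.9% of all kept probe sets. With linalool in unrestrained rats they were 12.7%, beside 9.83%. In the remaining comparisons the list's share was 3.64% to 9.09%, each below that of all kept probe sets (7.99% to 16.2%). Their median change with restraint was -0.036, beside -0.011 over all probe sets, with 22 positive and 33 negative values from -0.26 to 0.47. The highest was that of Mt2A, a metallothionein gene (SE 0.15, adjusted p = 0.0849). Nfe2l2 itself differed by 0.15 (SE 0.068, interval 0.0014 to 0.29, adjusted p = 0.259) and Keap1 by -0.18 (SE 0.064, interval -0.31 to -0.043, adjusted p = 0.132). Bach1, the repressor of Hmox1, had a probe set below the filter and was not tested.

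Of 32 genes of haem synthesis, transport, breakdown and iron storage, 27 were kept, of which 1 rose and 1 fell with restraint on average, with a median of -0.066. Of all kept probe sets 4.21% were called in this comparison and 2.65% were called higher. Tfrc, the transferrin receptor that brings iron into cells, fell by 0.47 (SE 0.073, interval -0.62 to -0.31, adjusted p = 0.00154). It measured 10.37 to 10.70 in controls, 9.99 to 10.41 with stress, 10.36 to 10.61 with linalool and 9.77 to 10.04 with both. Within linalool rats its fall of 0.61 passed on its own (SE 0.10, adjusted p = 0.00633). Those groups did not overlap, though the lack of overlap was not counted for other kept probe sets. This call was lost with the values as deposited, within the arrays of low BioC and without stress with linalool rats 1 and 2 (adjusted p up to 0.292). With the values as deposited the average change was -0.25 and did not pass (adjusted p = 0.224), where the median of all probe sets was shifted by 0.21. Cp, the ferroxidase ceruloplasmin, which loads iron onto transferrin, rose by 0.48 (SE 0.11, interval 0.25 to 0.71, adjusted p = 0.0193), from 7.77 to 8.44 in controls to 8.47 to 8.75 with stress. Its call was lost within the arrays of low BioC and when rats 1 and 2 of either the control or the stress with linalool group were left out (adjusted p up to 0.137).

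**Figure D5:**
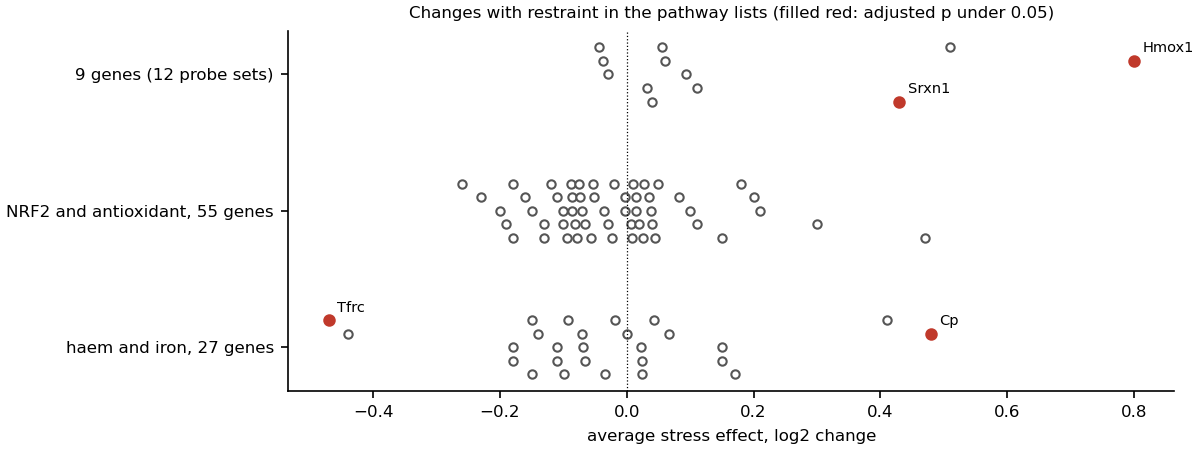
Each point is a probe set of the 9 genes, or 1 gene of the pathway lists at its brightest kept probe set, placed by its log2 change with restraint averaged over both odour conditions. Vertical offsets only separate points. Filled red points passed an adjusted p of 0.05, and they are Hmox1, Srxn1, Tfrc and Cp.

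Among the cells in which haem oxygenase 1 is known, 8 of 10 microglia and macrophage markers were kept. Of these Mrc1, of perivascular macrophages, rose by 0.49 (adjusted p = 0.0193), P2ry12 fell by 1.00 and Cx3cr1 fell by 0.49, with a list median of 0.026. Their summed signal was 3060 to 3150 in controls, 2420 to 3080 with stress, 2690 to 3410 with linalool and 2720 to 4930 with both, highest in stress with linalool rats 2 and 1 (4930 and 3600). All 7 astrocyte markers were kept and none passed with restraint (median 0.076), with summed signals of 36000 to 37900 in controls and 36700 to 40000 with both treatments. Of 8 endothelial and pericyte markers, 1 fell, Slco1a4 (-0.34, adjusted p = 0.0472). Their sum was 3310 to 4280 in controls, 2840 to 4270 with stress, 3140 to 3550 with linalool and 2570 to 3340 with both, and over the 16 arrays it correlated at -0.55 with Hmox1 and -0.62 with Srxn1. Of 6 oligodendrocyte markers, 1 fell, Opalin (-0.76, adjusted p = 0.0305). They summed to 30000 to 34800 in controls, 28600 to 32100 with stress, 27400 to 32000 with linalool and 27900 to 30400 with both, with correlations of -0.58 and -0.63. For the other lists these correlations lay between -0.070 and 0.46. The 2 kept blood markers, Hbb (0.35) and Alas2 (0.41), did not pass, and their sum was 2930 to 5840 in controls and 5340 to 9970 with stress. Choroid plexus and ependyma markers, 3 of 5 kept, summed to 256 to 303 in controls, 295 to 363 with stress, 246 to 403 with linalool and 367 to 884 with both, with 884 in stress with linalool rat 4. The part of these cells in the changes of Hmox1, Srxn1, Tfrc and Cp was not tested.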

How the data were processed

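Signal intensity came from the authors' deposited table of 31099 probe sets, 1 column per rat. MAS5, which turns perfect-match and mismatch probes into 1 linear value, made them per the submitters' processing notes. No source used here gives its version or scaling target. The columns were not at a common level, so log2 values were quantile-normalized between arrays. A change shared by most transcripts is therefore hidden. A pseudocount of 16 was added, 57 control probe sets were dropped, and probe sets at or above the 40th percentile of the mean log2 value were kept (18625). Gene symbols came from the platform table.

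Limma 3.58.1 in R 4.3.3 (lmFit, eBayes, two-sided) fitted 4 group means over the 16 arrays (12 residual degrees of freedom, 3.97 prior), and 6 contrasts were taken. The design text counts 16 rats for the 16 arrays, so p-values measure the spread between rats. Precision is limited by having 4 arrays per group.The members, lists and tests were chosen with earlier results of these data known. All member probe sets are named. Of the pathway lists, genes called in any comparison are named, with Nfe2l2, Keap1 and Bach1 always, and for each called member the 5 genes of highest correlation.

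Rats of the same number in different groups did not deviate together (median correlation of deviations 0.0044 over 24 pairs, with 4 over 0.1), so no replicate block entered. Alternatives changed the scaling, pseudocount, filter, block (BioC level or rat number), covariate, weights or rats, and their effects close the text.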

Additional observations from a re-analysis of the deposited data

Results flagged for a closer look

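Within each group of 4 rats, the gap between the highest or lowest rat and its neighbour was compared with the whole range. Of 52 groups (13 probe sets in 4 groups), 4 had a gap above the 95% critical value of Dixon's test, where chance alone gives about 1 in 20. Hmox1 was 6.40 in linalool rat 4, against 6.84 in the next rat. The untested Srxn1 probe set 1381067_at was 5.19 in stress rat 4, against 4.28. Gclc 1372523_at was 8.41 in stress rat 2, against 8.66. Gclm was 7.66 in stress with linalool rat 1, against 7.88, in a rat that was the highest for Hmox1 and for Srxn1 1372510_at, though not for Srxn1 1384331_at.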

How the results depend on the processing

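With quantile-normalized values as reported, 168 probe sets were called between stress and control, 314 between stress with linalool and linalool, 784 with restraint on average, 0 between linalool and control, 121 between stress with linalool and stress, and 0 in the test of the difference. In that order, and omitting counts within 1.5 times of these, the values as deposited gave 54, 1103, 32 (between stress with linalool and stress) and 1 (difference). No filter gave 102, 188 and 46 (between stress with linalool and stress). BioC as a block gave 499 (between stress with linalool and linalool), 51 (between stress with linalool and stress) and 1 (difference). The arrays of low BioC gave 95, 73, 458 and 0 (between stress with linalool and stress). The beta-actin ratio as a covariate gave 259, 553, 1 (between linalool and control), 386 and 14. Array weights gave 72, 594 and 484 (between stress with linalool and stress). A pseudocount of 64 and a filter at the 60th percentile each gave 1 in the difference. Leaving out control rats 1 and 2, chosen after seeing the data, gave 44, 476, 2 (between linalool and control), 252 and 1. Stress with linalool rats 1 and 2 were also left out, likewise chosen afterwards. That gave 23 (between stress with linalool and linalool), 257 (restraint on average) and 0 (between stress with linalool and stress). Leaving out 1 rat at a time gave 69 to 202, 112 to 398, 489 to 1004, 0 in every fit, 29 to 232, and 0 to 1. Scaling moved the split of directions. Calls that were higher made up 69.6% as reported and 85.2% as deposited between stress and control, and 66.6% and 99.4% between stress with linalool and linalool. The median of all probe sets was shifted by 0.099 and 0.32 there as deposited.

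Of the 9 genes, the 2 calls with restraint on average became 1 with no filter, with the 60th percentile filter (which Hmox1 does not reach), with array weights and when control rats 1 and 2 were left out. They became 0 within the arrays of low BioC and when stress with linalool rats 1 and 2 were left out, and were 1 to 2 when 1 rat was left out. Hmox1 missed the threshold at 0.80 with no filter, 0.72 within the arrays of low BioC, 0.72 with array weights, 0.82 when control rats 1 and 2 were left out and 0.52 when stress with linalool rats 1 and 2 were, and was 0.64 to 0.92 when 1 rat was left out. Srxn1 missed it at 0.40 within the arrays of low BioC and 0.30 when stress with linalool rats 1 and 2 were left out. Between stress with linalool and linalool, 4 member probe sets were called with the values as deposited, 1 with the beta-actin covariate, and 0 to 2 when 1 rat was left out. The causes were not tested. Of 2076 member values recomputed, 9 became called, 16 lost a call, 0 reversed with a call and 130 changed sign while called in neither setting. The replicate block, which ties rats of the same number although nothing in the labels pairs them, gave 121, 312, 719, 0, 120 and 0 calls and kept both genes called. Dim probe sets such as Srxn1 1381067_at lie too near the background for a change to be read.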
